A study of Mus musculus with 80 samples.

Results

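The 7 genes described here are the DNA methyltransferases Dnmt1, Dnmt3a, Dnmt3b and Dnmt3l, the hemimethylated-DNA binders Uhrf1 and Uhrf2, and the methyl-CpG reader Mbd1, read in mouse embryonic stem (ES) cells that differ in the zinc finger transcription factors SALL4 and SALL1. They were taken by gene symbol, 7 of 37890 symbols that appear in at least 1 table, and rows of 1 symbol were summed. RNA was measured by sequencing in 12 libraries of 9 groups out of 80 samples in the series, and the other 68 samples were not analysed here. The deposited values are FPKM in 9 libraries and RPKM in 3, which are fragments or reads scaled to transcript length and to the mapped total. Such values keep no count, so depth is unknown and counting intervals cannot be given.

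The libraries labelled Sall4 KO plus mutant SALL4A (2 libraries) are Sall4 delta/- cells transfected with a mutant of the SALL4A isoform, and the second carries the label of a Flag-SALL4A-MUT transgene. Sall4 KO plus WT SALL4A (1 library) received the wild-type isoform. The libraries labelled Sall4 KO (2 libraries) are Sall4 delta/- and those labelled Sall4 het (2 libraries) are Sall4 flox/-, so het cells too have 1 Sall4 allele missing. The double knockout (DKO, 1 library) is Sall1-/-/Sall4-/- and was set against its own wild-type cells (1 library). Sall1 KO is Sall1 delta/- and Sall1 het is Sall1 flox/-, with 1 library each, and TT2 is a wild-type line with 1 library. Replicate 1 of the Sall4 groups, the WT add-back, the DKO pair and the Sall1 pair have the strain label C57BL/6J. Replicate 2 of the 3 Sall4 groups is the E14.1 line of 129P2/OlaHsd, and TT2 is (C57BL/6NCrlj x CBA/JNCrlj)F1. The labels describe a culture only for TT2, on gelatin without feeder cells, and give neither the promoter of the transgenes nor the number of clones.

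Cytosine methylation in mammals is written by de novo enzymes and copied at each cell division by a maintenance system. DNMT3A and DNMT3B are the catalytic de novo enzymes, and DNMT3L is a partner with no catalytic activity of its own that stimulates them and is abundant in ES cells and germ cells. DNMT1 copies the pattern to the new strand, UHRF1 binds hemimethylated CpG and recruits DNMT1, UHRF2 is its paralog, and MBD1 binds methylated CpG and is linked to repression. Naive ES cells use mainly a short form of DNMT3A that starts from an internal promoter, and both Dnmt3a and Dnmt3b are known to go up as ES cells leave the naive state for the primed one.

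The 8 markers of ES cells summed to 2032 to 2677 over the 12 libraries, and the tables of replicate 2 list 6 or 7 of the 8. The sums hide unlike members. In TT2, Pou5f1 alone was 1703, and Tdgf1, at 77.3, was the lowest of all libraries. Nanog was 88.9 and 208 in Sall4 KO against 138 and 397 in Sall4 het. Pou5f1 went the other way, at 641 and 863 against 488 and 706. Sall4 RNA was not low where the label says it is lost: it was 358 and 218 in the libraries labelled Sall4 KO against 196 and 64.2 in Sall4 het, and 109 in the library labelled DKO against 17.6 in its wild type. The gene value can include exons that were not deleted, so it checks no label, and directions are given between libraries by their labels. Sall1 was 2.27 in the library labelled DKO against 13.9 in its wild type, and 13.3 in Sall1 KO against 21.8 in Sall1 het. Fibroblast markers summed to 315 in DKO, to 321 in its wild type and to 4.28 to 99.9 in the other 10 libraries.

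The windows shown are the 250 bases before the annotated start of the de novo genes, because Dnmt3b and Dnmt3l are the members that differed most between the DKO library and its wild type, and because Dnmt3a has a pair of starts far apart. Capitals mark CpG, the sites these enzymes act on. The sequences are from RefSeq on GRCm38.p6, in the direction of transcription, and the deposited tables are on mm9, so starts were matched by the spacing between the starts of a gene. Dnmt3b has a single start in both, and its window was matched by the gene alone.
Dnmt3a upstream start (chr12:3806730-3806979, plus strand): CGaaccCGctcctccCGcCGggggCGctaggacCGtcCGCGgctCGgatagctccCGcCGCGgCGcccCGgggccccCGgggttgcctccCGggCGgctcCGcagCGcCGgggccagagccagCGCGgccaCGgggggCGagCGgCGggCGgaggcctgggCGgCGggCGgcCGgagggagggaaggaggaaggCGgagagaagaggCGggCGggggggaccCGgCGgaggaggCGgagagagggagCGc
Dnmt3a internal start (chr12:3891494-3891743, plus strand): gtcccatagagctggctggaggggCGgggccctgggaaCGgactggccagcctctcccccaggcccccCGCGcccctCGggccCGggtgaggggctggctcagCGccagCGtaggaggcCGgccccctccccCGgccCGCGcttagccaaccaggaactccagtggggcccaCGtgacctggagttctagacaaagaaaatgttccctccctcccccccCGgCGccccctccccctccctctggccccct
Dnmt3b (chr2:153649199-153649448, plus strand): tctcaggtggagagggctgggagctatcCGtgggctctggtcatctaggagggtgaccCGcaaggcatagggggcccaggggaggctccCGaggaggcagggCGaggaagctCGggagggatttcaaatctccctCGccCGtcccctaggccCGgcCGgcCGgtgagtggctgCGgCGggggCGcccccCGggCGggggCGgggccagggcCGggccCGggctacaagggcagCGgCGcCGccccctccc
Dnmt3l main start (chr10:78049592-78049841, plus strand): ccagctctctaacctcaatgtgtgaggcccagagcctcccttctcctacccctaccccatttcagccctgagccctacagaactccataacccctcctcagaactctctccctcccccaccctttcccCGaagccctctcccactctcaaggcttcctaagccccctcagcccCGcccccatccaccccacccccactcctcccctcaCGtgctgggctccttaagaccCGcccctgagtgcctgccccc

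The window before the upstream Dnmt3a start holds 38 CpG, more than 98.1% of 32851 such windows in the RefSeq table, where the median is 6. The window before the internal start holds 15 CpG, above 72.7% of windows, and that of Dnmt3b holds 21, above 83.7%. Dnmt3l is the CpG-poor one, with 4 CpG, above 37.8% of windows. The motif GGGCGG, read on both strands, is in all 4 windows and in 32.7% of the windows of all genes. Neither CCAAT nor TATAAA is in any of the 4, against 33.8% and 12.4% of all windows. A match or its absence describes these letters only.

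The TT2 table lists transcripts, so it shows which annotated starts carried the RNA in that library. Transcripts from the internal Dnmt3a start, 85221 bases after the first one, held 3.19 of the summed 4.53 FPKM, or 70.5%. The starts 457 bases after the first and at the first held 0.677 and 0.659 FPKM. For Dnmt3l, 35.4 FPKM (74.0%) came from transcripts that start 7555 bases after the first annotated start and 11.8 FPKM (24.8%) from those that start 7686 bases after it. Dnmt1 had 25.6 of its FPKM (93.5%) at 1 start, Uhrf1 was divided into 22.9 and 12.7 FPKM at starts 976 bases apart, and Dnmt3b and Uhrf2 have a single annotated start. These values come from 1 library, and how the authors divided reads between transcripts is not stated.

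**Figure D1:**
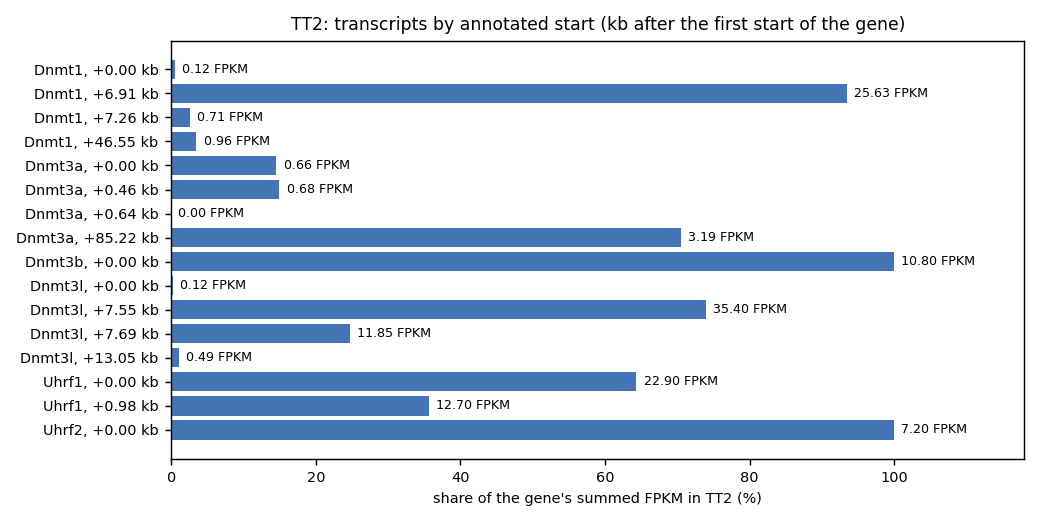
Share of each gene's summed FPKM in TT2 (horizontal axis, percent) by annotated start (rows, in kb after the first start of the gene), with the FPKM beside each bar. The internal start of Dnmt3a holds 70.5%, the main start of Dnmt3l 74.0% and that of Dnmt1 93.5%.

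Dnmt3a (chromosome 12, 3806006 to 3914443 in mm9 where the table follows Ensembl names) was 8.27 FPKM and 25.5 RPKM in KO plus mutant, 10.8 FPKM in KO plus WT, 58.1 FPKM and 27.4 RPKM in Sall4 KO, and 98.5 FPKM and 41.2 RPKM in Sall4 het. It was 5.85 FPKM in DKO against 5.88 in its wild type, 23.2 in Sall1 KO against 18.8 in Sall1 het, and 4.53 in TT2. These levels split by the gene model of the table. In 5 tables the listed start is 3806006 and Dnmt3a lay between 25.5 and 98.5, and in 6 tables the listed start is 3806979 and it lay between 5.85 and 23.2, with no overlap. The tables with the first start also list AC159324.1 at the same position, at 5.02 FPKM and 24.0 RPKM in Sall4 KO and 32.5 FPKM and 23.7 RPKM in Sall4 het. How reads of the locus were divided between the entries is not stated, so the Dnmt3a level is uncertain in those tables. Dnmt3a can be compared only between tables with the same start.

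Dnmt3b (chromosome 2, 153474425 to 153513466 in mm9) was 22.3 FPKM and 23.5 RPKM in KO plus mutant, 38.2 FPKM in KO plus WT, 39.4 FPKM and 35.2 RPKM in Sall4 KO, and 59.8 FPKM and 47.9 RPKM in Sall4 het. It was 36.1 FPKM in DKO against 9.59 in its wild type, 114 in Sall1 KO against 102 in Sall1 het, and 10.8 in TT2. The Sall1 pair is the highest of all libraries, and the wild type of the DKO and TT2 are the lowest. A neighbouring copy, Gm14490, is listed in 5 of the tables at 0.885 to 6.54, so reads could have been divided between the copies there.

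Dnmt3l (chromosome 10, 77492766 to 77526367 in mm9, as listed) was 134 FPKM and 180 RPKM in KO plus mutant, 220 FPKM in KO plus WT, 293 FPKM and 288 RPKM in Sall4 KO, and 242 FPKM and 236 RPKM in Sall4 het. It was 174 FPKM in DKO against 24.9 in its wild type, 182 in Sall1 KO against 153 in Sall1 het, and 47.9 in TT2. The wild type of the DKO is the lowest and TT2 the next lowest, as for Dnmt3b. Low values in TT2 are not particular to these genes. Its deposited values, which were not scaled, were the lowest of all libraries for Dnmt3a (4.53), Dnmt1 (27.4), Uhrf1 (35.6) and Uhrf2 (7.20). Mbd1 was not low there, at 7.47. Dnmt3l was the highest of the 7 genes in 11 of 12 libraries, the exception being the wild type of the DKO, where Uhrf1 and Dnmt1 stood above it.

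The maintenance genes varied less. Dnmt1 (chromosome 9, 20711649 to 20757317 in mm9) was 38.6 FPKM and 29.9 RPKM in KO plus mutant, 39.2 FPKM in KO plus WT, 41.4 FPKM and 42.1 RPKM in Sall4 KO, 45.2 FPKM and 29.3 RPKM in Sall4 het, 34.3 FPKM in DKO against 42.8 in its wild type, 44.9 in Sall1 KO against 45.2 in Sall1 het, and 27.4 in TT2. Uhrf1 (chromosome 17, 56442743 to 56462909 in mm9) was 55.9 FPKM and 94.7 RPKM in KO plus mutant, 61.3 FPKM in KO plus WT, 78.7 FPKM and 84.6 RPKM in Sall4 KO, 90.6 FPKM and 56.4 RPKM in Sall4 het, 72.1 FPKM in DKO against 100.4 in its wild type, 71.7 in Sall1 KO against 68.6 in Sall1 het, and 35.6 in TT2. Replicates of Uhrf1 differed by as much as the groups did, and both genes overlap between the Sall4 groups.

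Uhrf2 (chromosome 19, 30105002 to 30168212 in mm9) was 19.9 FPKM and 22.2 RPKM in KO plus mutant, 18.1 FPKM in KO plus WT, 22.7 FPKM and 33.3 RPKM in Sall4 KO, 17.8 FPKM and 15.0 RPKM in Sall4 het, 13.1 FPKM in DKO against 12.2 in its wild type, 15.2 in Sall1 KO against 14.9 in Sall1 het, and 7.20 in TT2. Mbd1 was 3.36 FPKM and 2.92 RPKM in KO plus mutant, 3.88 FPKM in KO plus WT, 7.61 FPKM and 5.52 RPKM in Sall4 KO, 4.78 FPKM and 4.13 RPKM in Sall4 het, 4.66 FPKM in DKO against 3.96 in its wild type, 3.77 in Sall1 KO against 3.47 in Sall1 het, and 7.47 in TT2. Mbd1 was the lowest of the 7 in 11 of 12 libraries, the exception being TT2, where Dnmt3a was lowest. Both libraries labelled Sall4 KO are above both labelled Sall4 het for Uhrf2 and for Mbd1.

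**Figure D2:**
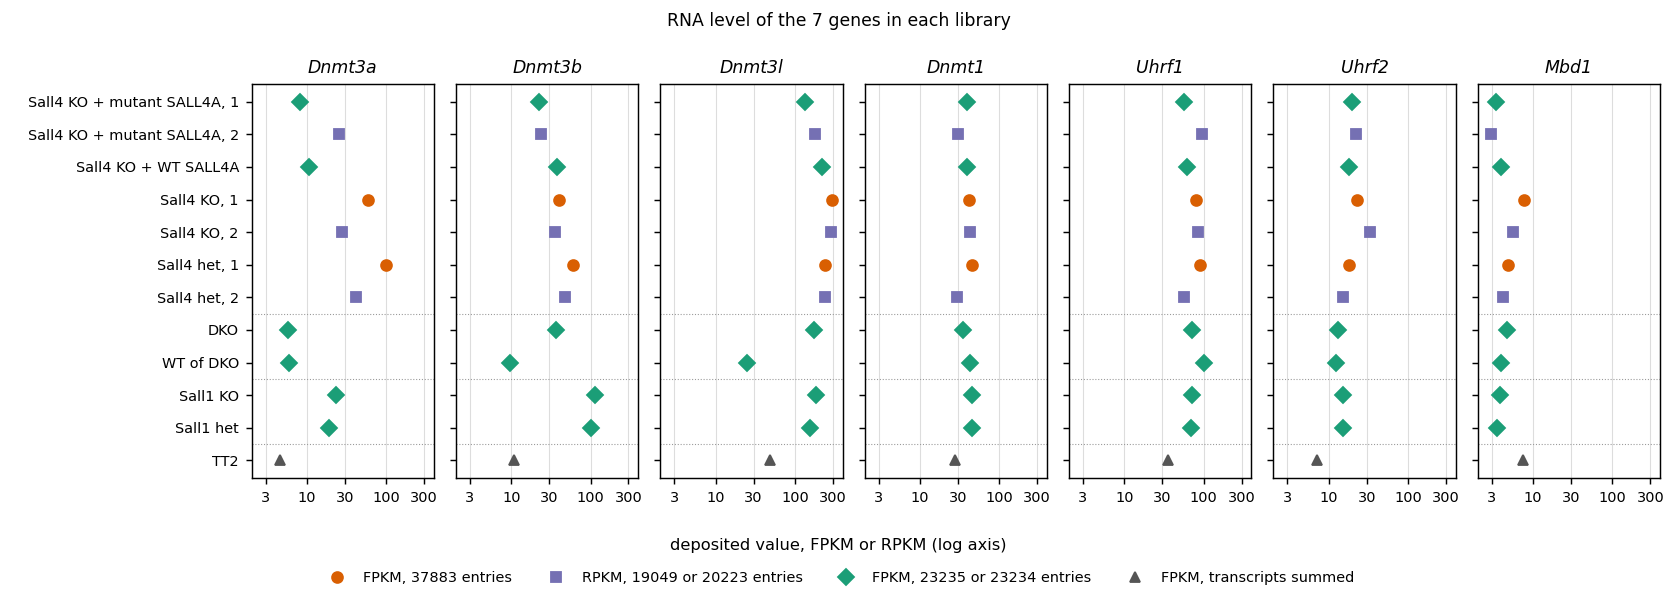
Deposited value (horizontal log axis, FPKM or RPKM) of each gene in the 12 libraries (rows), with symbol and colour for the unit and the number of entries of the table. Dnmt3a splits by kind of table, Dnmt3b and Dnmt3l are lowest in the wild type of the DKO and in TT2, and Dnmt1, Uhrf1, Uhrf2 and Mbd1 lie in narrower bands. TT2, whose values were not scaled, is also the lowest library for Dnmt3a, Dnmt1, Uhrf1 and Uhrf2.

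After scaling to a common median ratio, the highest of the 11 gene-level libraries stood 14.6-fold above the lowest for Dnmt3a, 11.8-fold for Dnmt3b and 10.6-fold for Dnmt3l. The same ratio was 2.29 for Uhrf2, 2.15 for Mbd1, 2.00 for Uhrf1 and 1.70 for Dnmt1. For Uhrf2, Mbd1 and Dnmt1 it runs between an FPKM and an RPKM library, so it crosses units. The ranges of Dnmt3a and Dnmt3l span gene models, cell lines and genotypes, and that of Dnmt3b spans cell lines and genotypes. These cannot be told apart here. For Dnmt3l the scaled values within the DKO pair alone were 184 in DKO and 25.5 in its wild type. On levels per length, Uhrf1 was above Dnmt1 and Uhrf2 below Uhrf1 in all 12 libraries. Dnmt3b was above Dnmt3a in 9 of 12, and the order of Dnmt3a, Dnmt3b and Dnmt1 changed from library to library.

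Comparing the libraries labelled Sall4 KO with Sall4 het asks which of these genes differ when SALL4 is lost. Dnmt3b was 39.4 FPKM and 35.2 RPKM in KO against 59.8 FPKM and 47.9 RPKM in het, and its log2 ratio was -0.55 in replicate 1 and -0.54 in replicate 2. Dnmt3a had log2 ratios of -0.71 and -0.68 within the replicates, with the same gene model inside each pair. The entry at its position, AC159324.1, was 5.02 FPKM and 24.0 RPKM in KO against 32.5 FPKM and 23.7 RPKM in het. How reads were divided between the entries is not stated, so the Dnmt3a ratios are uncertain. Uhrf2 had 0.37 and 0.98, Mbd1 0.60 and 0.24, and Dnmt3l 0.31 and 0.17, so these 3 had higher values in KO in both replicates. Dnmt1 (-0.09 and 0.40) and Uhrf1 (-0.16 and 0.46) went opposite ways in the replicates. These are bulk samples, in which fewer cells of a type and less RNA per cell cannot be told apart.

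No member passed the test in this comparison. In limma's fit across 11636 genes with a term for replicate number, the log2 change was -0.55 ± 0.23 for Dnmt3b, with a Benjamini-Hochberg adjusted p of 0.554. It was 0.68 ± 0.25 for Uhrf2 (limma adjusted p = 0.511), -0.70 ± 0.72 for Dnmt3a (0.846) and 0.42 ± 0.23 for Mbd1 (0.656), as SE with n = 2 per group. Dnmt3l had 0.24 ± 0.31 (limma adjusted p = 0.891), Dnmt1 0.16 ± 0.24 (0.918) and Uhrf1 0.15 ± 0.38 (0.961). Of all genes tested, 0 were called (0.0%), and 1123 (9.65%) had an unadjusted p under 0.05, Uhrf2 among them. The fit also holds the KO plus mutant libraries, whose replicates have unlike gene models. In the fit of the 4 KO and het libraries alone, the SE of Dnmt3a was 0.198 and its limma adjusted p 0.195, with 29 genes called and none of the 7 among them. Without KO plus mutant replicate 1, replicate 2 or Sall4 KO replicate 2, limma called 29, 23 and 2 genes.

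By scaled values without a test, Dnmt3b lay lower in both KO libraries than in both het libraries, and Dnmt3l, Uhrf2 and Mbd1 lay higher. Of all 11636 genes, 18.2% did not overlap in the lower direction and 19.0% in the higher, so 1 of 7 lower and 3 of 7 higher is read against those shares. Dnmt3a overlaps across replicates because replicate 2 of het is below replicate 1 of KO. No member passed 2-fold in either replicate, against 8.37% of genes in replicate 1 and 13.4% in replicate 2. Uhrf2 in replicate 2 is nearest to that limit, at 1.97-fold, and is past it without the pseudocount, where its log2 ratio is 1.03. Sums of some marker lists were higher in KO. Primitive endoderm markers summed to 9.83 and 6.74 in KO against 4.01 and 1.80 in het, and trophoblast markers to 19.3 and 9.72 against 6.27 and 6.63. Of the trophoblast markers, Elf5 went the other way, at 0.294 and 0.502 in KO against 0.838 and 2.15 in het. Primed epiblast markers summed to 51.9 and 32.6 in KO against 47.4 and 49.4 in het, so the sum went opposite ways in the replicates. Of these markers, Otx2 was lower in both KO libraries, at 15.6 and 13.2 against 23.1 and 38.8. Sox4 was higher in both, at 25.6 and 12.4 against 15.6 and 4.54, and so was Lef1, at 5.94 and 5.54 against 3.45 and 4.22. Fgf5 went opposite ways, and Pou3f1 has no value in replicate 2. The part of these cell types in the member values was not tested.

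The labels do not say whether the libraries of a group are separate cultures, and a p-value here reflects only the spread of these libraries, possibly technical. Replicates 1 and 2 also differ in strain label and unit (for KO plus mutant also in gene model), and these cannot be told apart in the fit.

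**Figure D3:**
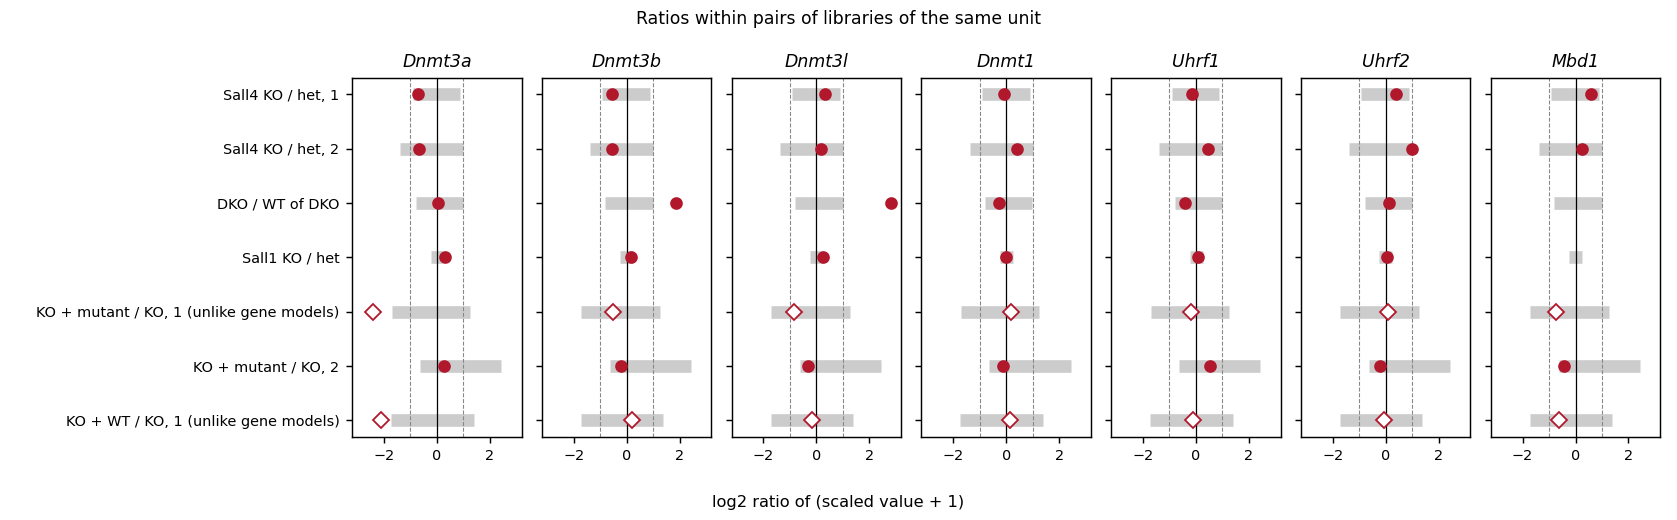
Log2 ratio of each gene (horizontal axis, scaled value plus 1) in 7 pairs of libraries (rows), with grey bars from the 5th to the 95th percentile of all genes of the pair and dashed lines at 2-fold. Open diamonds mark pairs whose tables have unlike gene models, and 2 pairs hold no point for Mbd1, which is below the level limit. Dnmt3b and Dnmt3l stand beyond the bar in the DKO pair.

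Comparing the library labelled DKO with its wild type asks the same of cells that lack both SALL1 and SALL4. Dnmt3l was 174 FPKM in DKO against 24.9 in its wild type, a log2 ratio of 2.80 or 6.97-fold, which lies at the 99.4th percentile of 8621 genes. Dnmt3b was 36.1 against 9.59 FPKM, a log2 ratio of 1.85 or 3.61-fold, at the 98.5th percentile. Dnmt3a, their partner, was 5.85 against 5.88 FPKM, a log2 ratio of 0.03. The maintenance genes had log2 ratios of -0.27 for Dnmt1, -0.43 for Uhrf1 and 0.14 for Uhrf2. Mbd1 is under the level of 5 in both libraries and was given no ratio. Of the 6 members above that level, 2 were past 2-fold and both were higher, against 8.49% of genes past it, 4.94% higher and 3.55% lower. There is 1 library in each group, so the difference has no replicate check and no test.

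Markers moved in the same pair. Primed epiblast markers summed to 24.4 in DKO, with 4 of 5 at 1 or more, against 9.25 in the wild type, with 3 of 5. Of these 5, Lef1 was 10.3 against 0.554, Sox4 9.45 against 3.13, and Fgf5, a defining gene of the primed state, 0.275 against 0.0605. Pou3f1 was 1.30 against 1.24, and Otx2 went the other way, at 3.02 in DKO against 4.27 in the wild type. The 8 ES cell markers summed to 2247 in DKO against 2433 in the wild type, with Nanog at 193 against 425 and Utf1 at 104 against 37.7. Fibroblast markers summed to 315 against 321, so they were high in both, with 9 of 9 and 7 of 9 at 1 or more. The part of these markers in the Dnmt3b and Dnmt3l values was not tested. Set across tables that were normalized separately, the Dnmt3l value of 24.9 FPKM in the wild type of the DKO is below the 153 of Sall1 het and the 242 of Sall4 het replicate 1, between which the 174 of DKO lies, and TT2, the other wild-type line, had 47.9. The TT2 value was also the lowest of all libraries for Dnmt3a, Dnmt1, Uhrf1 and Uhrf2.

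**Figure D4:**
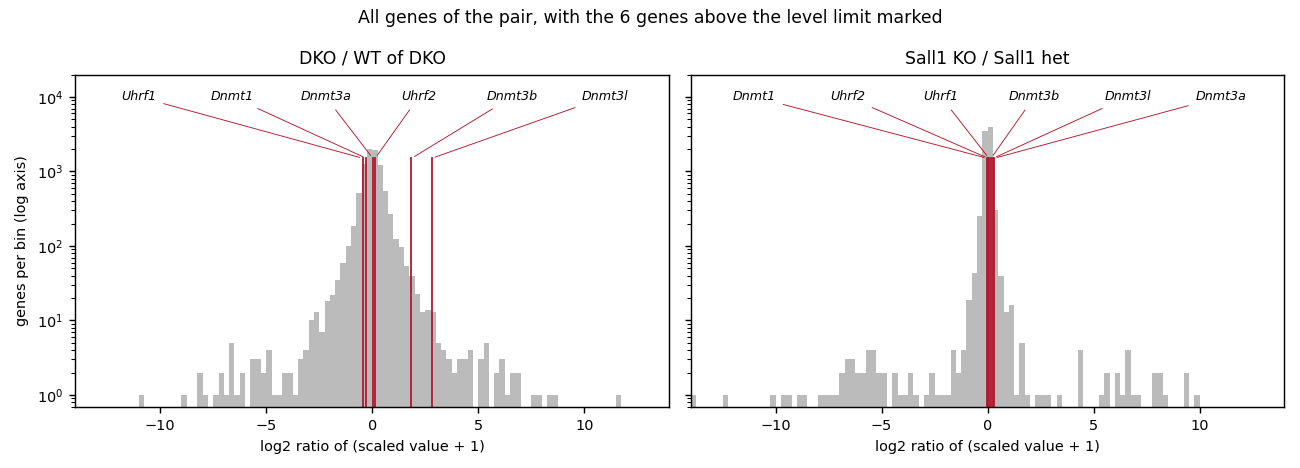
Histograms of the log2 ratio (horizontal axis, scaled value plus 1) of all genes that reach 5 in a library of the pair, as genes per bin (vertical log axis), for DKO against its wild type (left) and Sall1 KO against Sall1 het (right). Red lines mark the 6 members above the level, with Dnmt3b at 1.85 and Dnmt3l at 2.80 in the left panel and all 6 between -0.01 and 0.29 in the right panel.

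In Sall1 KO against Sall1 het, all 6 members above the level lay close to 0. Dnmt3a was 23.2 against 18.8 FPKM, a log2 ratio of 0.29, Dnmt3l 182 against 153, a ratio of 0.25, and Dnmt3b 114 against 102, a ratio of 0.16. The middle 90% of 8173 genes ran from -0.24 to 0.25 in this pair, so Dnmt3a, at the 96.5th percentile, is just outside and Dnmt3l, at the 95.1st, at its edge. Dnmt1 (-0.01), Uhrf1 (0.06) and Uhrf2 (0.03) were within it. No member passed 2-fold, and 1.33% of all genes did. With 1 library in each group there is no test.

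Comparing KO plus mutant with Sall4 KO asks what the mutant SALL4A does in cells without SALL4. Dnmt3l was 134 FPKM and 180 RPKM in KO plus mutant against 293 FPKM and 288 RPKM in KO, with log2 ratios of -0.83 and -0.31. Mbd1 had -0.74 and -0.44, and Dnmt3b -0.51 and -0.21. These 3 lay lower in both KO plus mutant libraries, against 20.7% of genes that did not overlap in that direction. In replicate 1 the ratios of all 3 cross gene models, since the libraries have other listed starts for them. Sums of some marker lists were lower too. Primitive endoderm markers summed to 2.16 and 1.23 in KO plus mutant against 9.83 and 6.74 in KO, and trophoblast markers to 5.44 and 4.04 against 19.3 and 9.72. Fibroblast markers summed to 11.9 and 6.97 against 79.7 and 19.4, though Thy1 among them was higher, at 4.03 and 2.36 against 1.23 and 1.33. Primed epiblast markers summed to 31.7 and 40.2 in KO plus mutant against 51.9 and 32.6 in KO, so the sum went opposite ways in the replicates. Its members did not: Otx2 was higher in KO plus mutant in both replicates, and Sox4, Lef1 and Fgf5 were lower in both. Pou3f1 has no value in replicate 2. The tables list unequal numbers of the markers in these lists, and the part of these cell types in the member values was not tested. Dnmt1 (0.19 and -0.12), Uhrf1 (-0.20 and 0.53) and Uhrf2 (0.10 and -0.20) went opposite ways in the replicates. In replicate 1 the Dnmt1 and Uhrf1 ratios cross gene models too. Dnmt1 is listed to 20757317 in KO and to 20764332 in KO plus mutant, and Uhrf1 from 56442743 and from 56442759.

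No member was called in this comparison, with 0.0% of 11636 genes called and 9.81% at an unadjusted p under 0.05. The log2 change was -0.59 ± 0.23 for Mbd1 (limma adjusted p = 0.507), -0.57 ± 0.31 for Dnmt3l (0.584) and -0.36 ± 0.23 for Dnmt3b (0.619), as SE with n = 2 per group. Dnmt3a had log2 ratios of -2.40 in replicate 1, where the tables have unlike gene models, and 0.26 in replicate 2, where they have the same one, and a fitted change of -1.07 ± 0.72 (limma adjusted p = 0.629). Without KO plus mutant replicate 2 the Dnmt3a change was -2.41 with a limma adjusted p of 0.00725, and 880 genes were called, and without replicate 1 it was 0.26. Past 2-fold in replicate 1 was Dnmt3a alone of the 7, against 20.8% of genes, and no member was past it in replicate 2, against 17.0%. The pair of replicate 2 is therefore the one in which the listed starts of Dnmt3a match. In that pair AC159324.1, the entry at the position of Dnmt3a, was lower in KO plus mutant than in Sall4 KO. How reads were divided between the entries is not stated, so the Dnmt3a ratio of 0.26 is uncertain too.

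KO plus WT was set against Sall4 KO replicate 1, which has another gene model, and the share of genes past 2-fold was 22.7%. Dnmt3a was 10.8 FPKM in KO plus WT against 58.1 in KO, a log2 ratio of -2.10 that crosses the gene models. Mbd1 was 3.88 against 7.61 (-0.62), Dnmt3b 38.2 against 39.4 (0.19), Dnmt3l 220 against 293 (-0.17), and Dnmt1, Uhrf1 and Uhrf2 had ratios of 0.16, -0.12 and -0.08. With no scaling Dnmt3b had -0.045 and Dnmt1 -0.074, so these directions rest on the scaling. KO plus mutant replicate 1 shares its gene model with KO plus WT, and there Dnmt3l was 134 and Dnmt3b 22.3 FPKM, below the 220 and 38.2 of KO plus WT, each a single library.

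Set against Sall4 het, KO plus mutant had lower values of Dnmt3b in both replicates, 22.3 FPKM and 23.5 RPKM against 59.8 FPKM and 47.9 RPKM, for a fitted log2 change of -0.91 ± 0.23 (SE, n = 2, limma adjusted p = 0.455). Uhrf2 was 0.62 ± 0.25 (limma adjusted p = 0.482) and Dnmt3a -1.77 ± 0.72 (0.483). None was called, as for all genes (0.0%), with 10.6% at an unadjusted p under 0.05. Dnmt3a, Dnmt3b, Dnmt3l and Mbd1 lay lower in both libraries, against 17.3% of genes, and Uhrf2 higher, against 18.9%. For Dnmt3a, Dnmt3b, Dnmt3l and Mbd1 this crosses gene models, since KO plus mutant replicate 1 has other listed starts for them than Sall4 het. Without KO plus mutant replicate 2 limma called 744 genes and Dnmt3a had -3.10 (adjusted p = 0.00357), across unlike gene models. Without replicate 1, Dnmt3a, now set between tables with the same listed start, had -0.43. AC159324.1 was lower in KO plus mutant replicate 2 than in Sall4 het replicate 2, so this Dnmt3a value is uncertain as well. The comparisons of KO with het, KO plus mutant with KO and KO plus mutant with het share libraries.

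Ratios between genes inside a library need no scaling. Dnmt3l over the sum of Dnmt3a and Dnmt3b was 3.00 and 4.61 in Sall4 KO against 1.53 and 2.65 in Sall4 het, higher in KO in both replicates. It was 4.15 in DKO against 1.61 in its wild type, and 1.33 in Sall1 KO against 1.27 in Sall1 het. It was 4.38 and 3.68 in KO plus mutant, 4.50 in KO plus WT and 3.12 in TT2. The ratio holds Dnmt3a, so it can be compared only within a pair of like tables. With 2 libraries against 2, no permutation test can reach the threshold, and none was made.

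Dnmt3b over Dnmt3a was 0.678 and 1.29 in Sall4 KO against 0.608 and 1.16 in Sall4 het, so both catalytic enzymes stood at nearly the same ratio within each replicate. In the DKO pair it was 6.17 in DKO against 1.63 in its wild type, and it was 4.89 in Sall1 KO against 5.41 in Sall1 het. Uhrf2 over Uhrf1 was 0.288 and 0.394 in Sall4 KO against 0.196 and 0.267 in Sall4 het, 0.182 in DKO against 0.122 in its wild type, and 0.212 in Sall1 KO against 0.217 in Sall1 het. Uhrf1 over Dnmt1 lay between 1.30 in TT2 and 3.16 in KO plus mutant replicate 2, with 1.90 and 2.01 in Sall4 KO against 2.00 and 1.93 in Sall4 het.

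**Figure D5:**
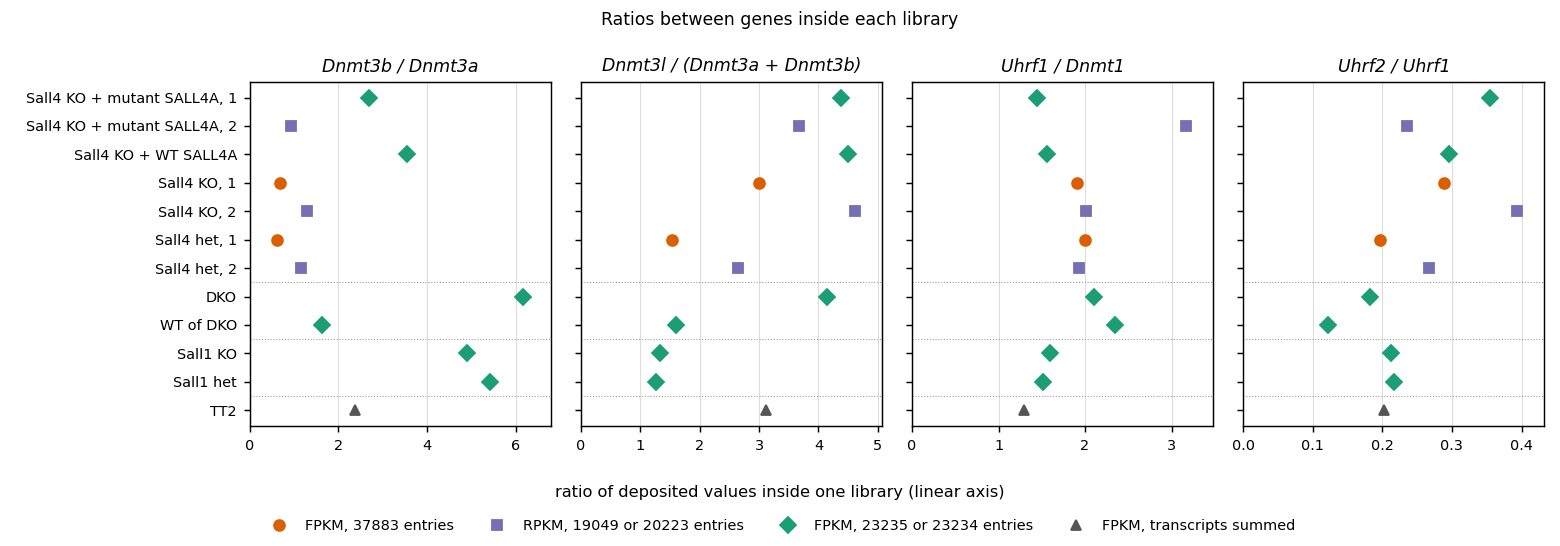
Ratio of deposited values inside 1 library (horizontal linear axes from 0) for 4 pairs of genes in the 12 libraries (rows), with symbol and colour for the kind of table. Dnmt3l over Dnmt3a plus Dnmt3b is 3.00 and 4.61 in Sall4 KO against 1.53 and 2.65 in Sall4 het, and 4.15 in DKO against 1.61 in its wild type.

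Other genes of the pathway were read as lists chosen with earlier results of these data known. Of 6 tested methyl-CpG readers and repressor partners, none was called between Sall4 KO and het, 4 lay above 0 and 2 below, and the median log2 change was 0.11 against 0.003 over all genes. Mbd2, which recruits the NuRD complex to methylated CpG, was 19.2 FPKM and 20.1 RPKM in KO against 13.0 FPKM and 9.35 RPKM in het (limma adjusted p = 0.513). Zbtb33, the methyl-CpG zinc finger protein Kaiso, was 5.21 FPKM and 5.64 RPKM against 2.95 FPKM and 2.71 RPKM (limma adjusted p = 0.449). Zfp57, which keeps methylation at imprinted regions, was 128 FPKM and 201 RPKM against 147 FPKM and 269 RPKM (limma adjusted p = 0.846).

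Of 10 tested partners of maintenance and de novo methylation, 7 lay above 0 and 3 below in KO over het, with none called and a median of 0.13. Cdca7, a partner of the remodeller HELLS, was 65.1 FPKM and 90.4 RPKM in KO against 58.2 FPKM and 65.8 RPKM in het. Usp7, a deubiquitinase that binds DNMT1 and UHRF1, was 112 FPKM and 179 RPKM against 100.2 FPKM and 123 RPKM. Cdca7l, a paralog of Cdca7, was 10.00 FPKM and 8.68 RPKM against 11.5 FPKM and 16.2 RPKM. Their limma adjusted p were 0.810, 0.796 and 0.647.

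Of 11 factors that oppose methylation, 5 lay above 0 and 6 below, with none called and a median of -0.05. Dppa3, known to hold UHRF1 away from chromatin in oocytes, was 2.11 FPKM and 3.58 RPKM in KO against 47.7 FPKM and 183 RPKM in het (log2 change -4.65 ± 0.70, SE, n = 2, limma adjusted p = 0.287). In the DKO pair it was the other way, 110 FPKM in DKO against 58.4 in its wild type. Gadd45a, a stress gene linked to demethylation, was 51.1 FPKM and 34.4 RPKM in KO against 88.5 FPKM and 53.6 RPKM in het (limma adjusted p = 0.459). Its relative Gadd45g was 21.2 FPKM and 7.62 RPKM against 8.63 FPKM and 3.80 RPKM (limma adjusted p = 0.401).

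Germline genes that promoter methylation is known to silence formed another list. Of 13 tested, 2 lay above 0 and 11 below in Sall4 KO over het, and none was called. Their median log2 change was -0.44, against 0.003 over all genes. The replicates were unlike. Among genes at 5 or more, 4 of 6 lay below 0 in replicate 1, with a median of -0.11 against 0.02 over all genes. In replicate 2, 7 of 8 lay below 0, with a median of -1.24 against -0.10. Tex101, Taf7l, Slc25a31 and Brdt were under 2 in every library of the fit. Tuba3a, a testis tubulin, was 8.93 FPKM and 4.53 RPKM in KO against 38.1 FPKM and 46.6 RPKM in het (log2 change -2.56 ± 0.35, SE, n = 2, limma adjusted p = 0.287). Tuba3b, its near copy, was 2.24 FPKM and 0.494 RPKM against 9.24 FPKM and 5.56 RPKM, and reads of the copies may have been divided between them. Dazl, a germ-cell RNA-binding protein gene, was 2.49 FPKM and 1.4 RPKM against 4.45 FPKM and 7.69 RPKM (limma adjusted p = 0.416). Rpl10l went the other way in both replicates. It was 57.1 FPKM and 54.8 RPKM in KO against 32.0 FPKM and 34.3 RPKM in het (limma adjusted p = 0.503).

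In the DKO pair all 7 germline genes above the level lay below 0, and 4 were past 2-fold lower, against 3.55% of genes. Their median log2 ratio was -1.59 against 0.009 over all genes. Tuba3a was 7.38 FPKM in DKO against 36.1 in its wild type, and Dazl was 1.83 against 7.62. Rpl10l, which was higher in Sall4 KO than in het, was 32.8 FPKM in DKO against 163 in its wild type. In Sall1 KO against het, 2 of 5 lay above 0 and 3 below, with a median of -0.07 and none past 2-fold. In KO plus mutant over KO, 9 of 13 lay above 0 and 4 below, with a median of 0.53 against -0.007 over all genes and none called. Replicate 1 of that comparison crosses gene models. In its replicate 2 the 5th to 95th percentile of all genes ran from -0.64 to 2.43, further above 0 than below.

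The last list held replication genes. In Sall4 KO over het 9 of 18 lay above 0 and 9 below, with a median of -0.003 and none called. Cdc6, a licensing factor, was 15.3 FPKM and 17.9 RPKM in KO against 20.8 FPKM and 23.0 RPKM in het. Ccne1, cyclin E1, was 50.7 FPKM and 62.1 RPKM against 62.0 FPKM and 79.9 RPKM. Pola1, a subunit of the replicative polymerase alpha, was 45.2 FPKM and 29.0 RPKM against 63.9 FPKM and 60.4 RPKM. In the DKO pair 15 of 18 lay below 0, with a median log2 ratio of -0.27, and Ccne1 was 18.4 FPKM in DKO against 67.6 in its wild type.

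The genes most like each member over the 11 gene-level libraries were found among 6830 genes by Pearson's r of log2 values centred within unit, as a description with no p. For Dnmt1 they were Ibtk (r = 0.92), Kif11 (0.91) and Bub1b (0.90), and Kif11 and Bub1b act in mitosis. For Dnmt3b they were Bok (0.95), Utf1 (0.94) and Tcfl5 (0.93), and for Dnmt3l they were Grb7 (0.97), Enox1 (0.96) and Hmgxb4 (0.92). For Uhrf1 they were Gys1 (0.95), Aars2 (0.92) and Hdgfrp2 (0.91), and for Uhrf2 D14Abb1e (0.97), Zfp187 (0.94) and Etnk1 (0.94). For Dnmt3a they were Sephs1 (0.98), Cinp (0.97) and Sept6 (0.96), a likeness that holds the difference between gene models. Mbd1 has a median value under 5 and was given none.

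Among the members, Dnmt3b and Dnmt3l had r = 0.66 and Spearman's rho of 0.44 over 11 libraries. Dnmt3a and Dnmt3l had r = 0.53 and rho of 0.53, and Dnmt3a and Dnmt3b had r = 0.48 and rho of 0.60, so the closest pair differs between the measures. Dnmt1 and Uhrf1 had r = 0.32, and Uhrf1 had r = -0.52 with Dnmt3l and -0.45 with Dnmt3b. The points share cell lines, tables and, for the replicates, groups, and the wild type of the DKO lies far from the rest for Dnmt3b, Dnmt3l and Uhrf1.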

How the data were processed

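RNA-seq tables of 12 libraries were used. The deposited FPKM values (9 tables) and the deposited RPKM values (3 tables, replicate 2 of the Sall4 groups) are as the authors made them, per the file headers. The TT2 table is FPKM by its header but is deposited under a name that says RPKM, so the unit of the TT2 values is uncertain. Per the submitters' processing notes, the series used TopHat, Bowtie 0.12.7, SAMtools and MACS 1.4.2 with the build mm9. The tool behind each table, and its way of dividing reads between overlapping entries, are not stated. Of the listed symbols, 13107 were in all 6 tables of the fit. In the table of KO plus mutant replicate 2, 18 symbols were set by Ensembl ID, and 99.3% of the gene IDs of TT2 were matched to RefSeq symbols.

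Each library was divided by its median ratio to the geometric mean of the 11 gene-level libraries, 1 was added and log2 taken, a scale that understates the change of low genes. A limma model (version 3.58.1, lmFit and a trended eBayes, R 4.3.3) was fitted to genes that reached 1 in 2 or more of the 6 libraries of Sall4 KO plus mutant, KO and het, with group and replicate number, since replicates differ in unit. Tests are two-sided, adjusted over all genes at 0.05. Replicate 1 minus replicate 2 correlated over genes at r = 0.58 between het and KO, 0.10 between het and KO plus mutant and 0.06 between KO and KO plus mutant, and the pairing comes from the replicate number of the labels. Pairs of single libraries were given log2 ratios among genes at 5 or more in 1 library, with 2-fold as the limit. The fit was tested on simulated data. Ratios were computed in Python 3.11.15 with numpy 2.4.6 and pandas 2.3.3, and drawn in matplotlib 3.10.9. Promoter windows are the 250 bases before RefSeq starts.

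The members and lists were chosen with earlier results of these data known. Named genes are the 7 members, in each list at most 3 genes by the size of the same-sign change between KO and het, and the 3 genes most like each member. Rpl10l was named beside these because its directions differed between the Sall4 and DKO comparisons. The sequence and position of Mbd1 are not reported here. Alternatives were scaling, pseudocount, level filter, rows of a symbol, the replicate term, the groups fitted and each library left out.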

Additional observations from a re-analysis of the deposited data

Results flagged for a closer look

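Dnmt3b had log2 ratios of opposite sign under the loss labels of different lines, and so did Dnmt3a in the Sall1 pair. Both had lower values in Sall4 KO than in Sall4 het in both replicates, with log2 ratios of -0.55 and -0.54 for Dnmt3b and -0.71 and -0.68 for Dnmt3a. Dnmt3b had a log2 ratio of 1.85 in DKO over its wild type and 0.16 in Sall1 KO over Sall1 het. Dnmt3a had 0.29 in the Sall1 pair. In the DKO pair it was flat, at 0.0291, and with no scaling -0.0070. The difference between these contrasts was not tested, since the DKO and Sall1 groups have 1 library each.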

How the results depend on the processing

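No member was called in KO over het under any alternative run. Calls over all genes in KO over het, 0 as reported, were 1 with no replicate block, with no scaling, with upper-quartile scaling and with a pseudocount of 0.1, 29 with only the groups compared, and 0 to 29 with 1 library left out. In KO plus mutant over KO they were 0 with no replicate block and 0 to 880 with 1 library left out. In KO plus mutant over het they were 0 with no replicate block, 1 with upper-quartile scaling, with a pseudocount of 0.1 and with only the groups compared, and 0 to 744 with 1 library left out. Where an arm was left with 1 library, it was assumed to vary like the others. The cause of these shifts was not tested.

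Directions near 0 turned. With 1 library left out, KO over het ran from -0.04 (-0.0413; also -0.0081 without Sall4 het replicate 2) to 0.35 for Dnmt1 and from -0.34 to 0.64 for Uhrf1, and Dnmt3a, which kept its sign, from -1.37 to -0.02. KO plus mutant over KO ran from -0.16 to 0.23 for Dnmt1, from -2.41 to 0.26 for Dnmt3a, from -0.35 to 0.68 for Uhrf1 and from -0.28 to 0.17 for Uhrf2. KO plus mutant over het ran from -3.10 to -0.43 for Dnmt3a and from -0.20 to 0.83 for Uhrf1, with -0.18 without Sall4 het replicate 2. With no scaling, which moves the median of all genes by -0.28 in KO plus mutant over KO and -0.24 in KO plus mutant over het, Dnmt1 was -0.29 and Uhrf1 -0.16 over KO and Dnmt1 -0.095 over het, and with upper-quartile scaling Uhrf2 over KO was 0.010. With no scaling KO plus WT over KO was -0.045 for Dnmt3b and -0.074 for Dnmt1. In the DKO pair Dnmt3l stayed between 2.76 and 2.84 and Dnmt3b between 1.81 and 1.94. Unknown depth leaves counting error out of every value, and the low Mbd1 values are the most exposed to it.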
